A study of Cyanidioschyzon merolae strain 10D with 3 samples.

Results

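The protein-coding genes of the chloroplast genome of Cyanidioschyzon merolae were described by their transcript level along the plastid map. Members were the loci placed on the sequence named Chloro whose identifiers end in C. There were 207 of them among 6823 loci in each library, beside 4803 nuclear and 34 mitochondrial protein-coding loci. C. merolae strain 10D is a unicellular red alga of acidic hot springs with 1 chloroplast per cell. All 3 libraries came from 1 condition, a liquid culture kept at 42°C with 150 rpm shaking and continuous light of 70 µmol, and are described as biological replicates, without the number of cultures behind them. RNA was selected by poly(A) with oligo(dT), so a level here counts only plastid RNA that was caught in this way. No group of treated or mutant cells was used, and the comparisons below set chloroplast loci against nuclear loci or against each other within the same libraries.

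Plastid genomes descend from that of a cyanobacterium, and those of red algae keep many genes in little space. Neighbouring plastid genes are often transcribed together and cut apart later, so that a promoter can serve several genes in a row. In plastids of land plants, short poly(A) tails mark RNA for decay, unlike the stable tails of nuclear mRNA. The files give no names for the chloroplast loci, and identifiers alone are used for them below.

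Values were FPKM, fragment numbers scaled to transcript length and to the mapped fragments of the library, with the lower and upper confidence limits deposited beside them. The number of fragments behind a value was worked out from those limits at loci that overlap no other locus, and is called the implied fragment number. It summed to 97448, 15776 and 16857 over the 90 chloroplast loci without overlap in libraries 1, 2 and 3, which was 0.751%, 0.548% and 0.566% of the implied fragments at all loci without overlap. Libraries 2 and 3 were closer to each other than sampling noise allows between independent libraries, with a noise index of 0.317 at chloroplast loci and 0.272 at all loci, where independent libraries give 1. They were therefore counted as 1 sample, and each mean ± SD below is over library 1 and the mean of libraries 2 and 3 (n = 2). With 2 samples of 1 condition no test was run.

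The chloroplast loci stood at low to middle levels. Their median was 21.9, 18.9 and 21.1 FPKM in libraries 1, 2 and 3 (20.9 ± 1.29 FPKM, SD, n = 2), against 57.7, 60.5 and 60.4 FPKM at nuclear loci (59.0 ± 1.94 FPKM). The medians of the 2 genomes were further apart than the libraries were from each other. The mitochondrial median was 0.14 FPKM in library 1, and 0 in libraries 2 and 3.

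Size and packing set the chloroplast loci apart before any level was read. Their median coding length was 480 bp, against 1272 bp in the nucleus, and 117 of 207 (56.5%) overlapped another locus, against 16.9% of the nuclear loci. Every one of the 207 lengths was a multiple of 3, so the annotated loci hold coding sequence without untranslated ends. This was not particular to the chloroplast, as 4784 of 4803 nuclear and 34 of 34 mitochondrial lengths were multiples of 3 too. The median distance between adjacent chloroplast loci was 16 bp, against 1502 bp in the nucleus, and 74 of the 206 adjacent chloroplast pairs overlapped.

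Among loci that overlap no other and reach 300 bp, the median was 34.5, 31.8 and 32.9 FPKM for 55 chloroplast loci. It was 61.0, 63.9 and 63.8 FPKM for 3904 nuclear loci. On the log2(FPKM + 1) scale the medians of all loci without overlap differed by -0.54 (chloroplast minus nucleus). It changed to -0.88 when a length of at least 300 bp was required and to -0.080 when a mean of at least 1 FPKM was, so its size turned on which low and short loci were kept. At 1000 bp and above the 18 chloroplast loci without overlap had medians of 53.3, 34.1 and 37.3 FPKM, against 55.1, 54.4 and 54.8 FPKM at 2485 nuclear loci. The 2 genomes were thus close in library 1 and apart in libraries 2 and 3.

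The chloroplast loci spanned a wide range. Among the 55 loci without overlap of at least 300 bp, the highest value was 463, 376 and 571 times the lowest in libraries 1, 2 and 3. At the top, 8, 7 and 8 of them exceeded the 90th percentile of nuclear loci. At the bottom, 17, 17 and 14 fell under the nuclear 10th percentile, which was 17.2, 16.4 and 16.4 FPKM. The chloroplast set thus reached into both tails of the nuclear distribution. Length was not related to level within these 55 loci (Spearman rho -0.00069 across loci, which share libraries and are no replicates), and their order was nearly the same in each library, with rho of 0.978, 0.972 and 0.992 for libraries 1 and 2, 1 and 3, and 2 and 3.

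**Figure D1:**
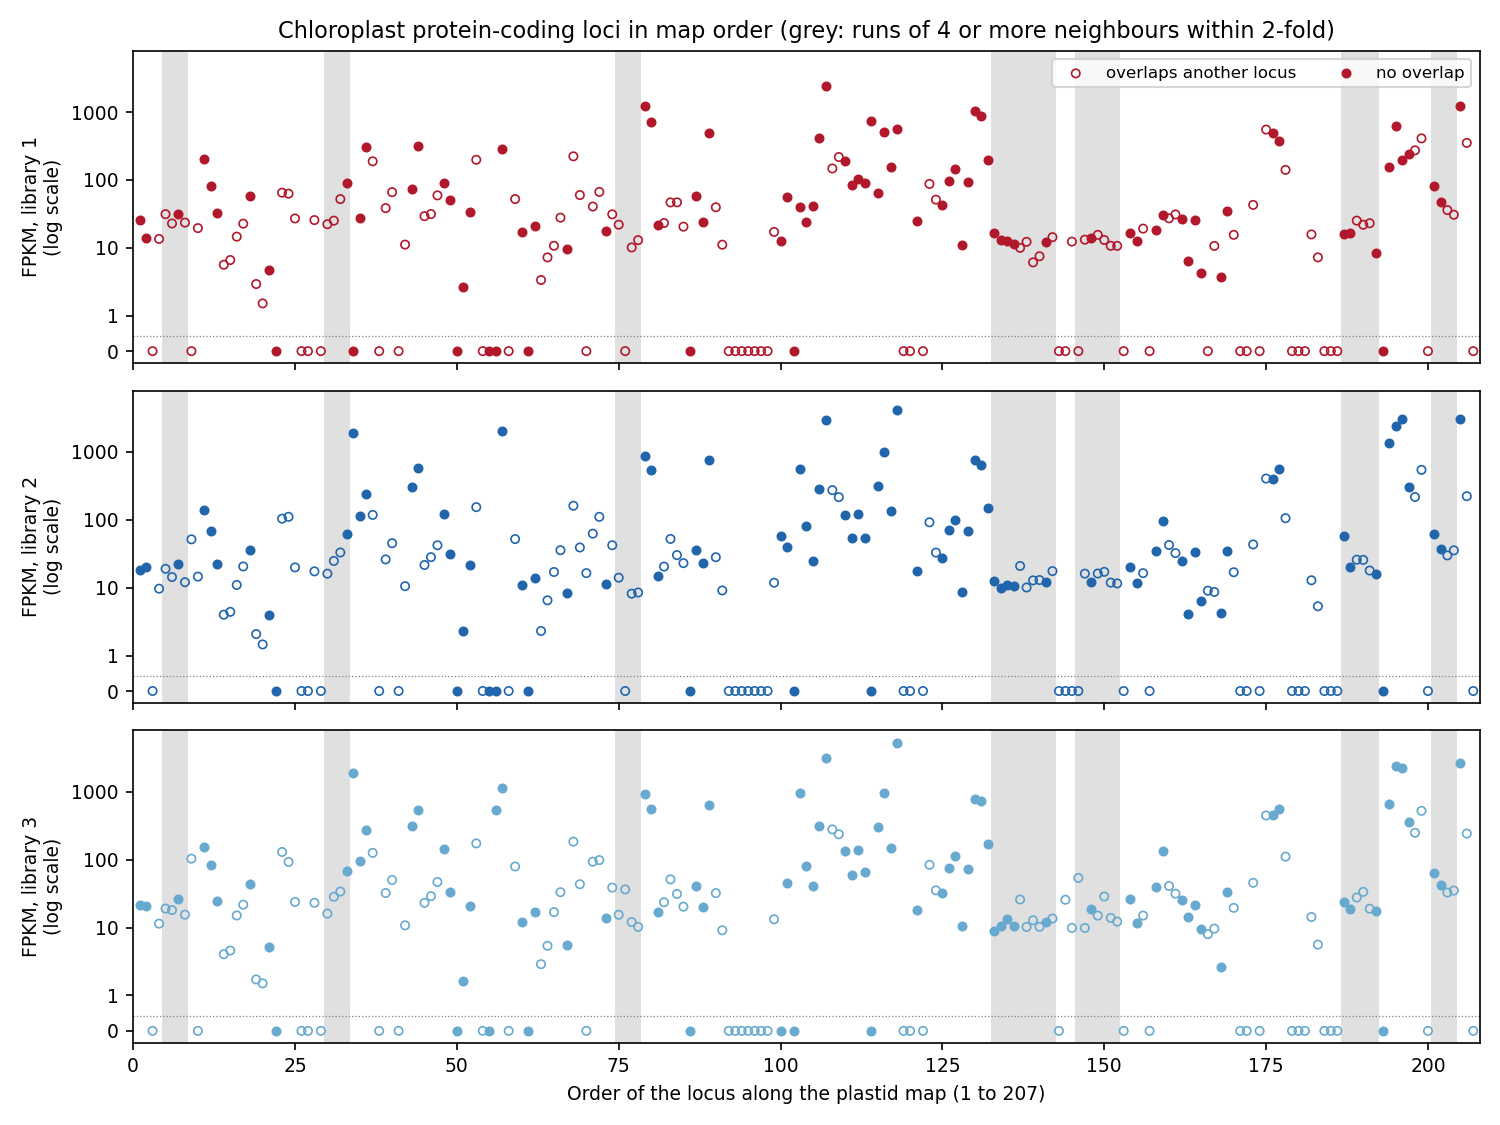
FPKM on a log scale (y axis, one panel per library) of the 207 chloroplast protein-coding loci in their order along the plastid map (x axis). Open circles overlap another locus, filled circles do not, points under the dotted line are listed at 0, and grey bands are the 7 runs of at least 4 neighbours within 2-fold. High loci sit in a few clusters, the longest grey band follows directly on the high loci CMV158C to CMV160C, and a block of 7 loci at 0 lies near the middle of the map.

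Among loci of at least 300 bp, the highest levels came from a few small clusters. CMV096C, at positions 60392 to 61036 of the plastid map of the Genome Project annotation (version 3), had 1213, 859 and 931 FPKM in libraries 1, 2 and 3 (1054 ± 225 FPKM, SD, n = 2). Its neighbour CMV097C (61049 to 61528), 12 bp on, had 722, 543 and 566 FPKM. These 2 loci formed a peak with low loci on both sides. CMV095C, 66 bp before it, had 13.0, 8.48 and 10.2 FPKM, and CMV098C, 279 bp after it, had 21.9, 14.7 and 16.7 FPKM.

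A second cluster ran from CMV158C to CMV160C. CMV158C (102236 to 102718) had 1033, 764 and 787 FPKM. CMV159C (102732 to 103214), 13 bp further and of the same length of 483 bp, had 878, 637 and 732 FPKM. CMV160C (103291 to 104160) had 196, 149 and 172 FPKM, so the level was lower at the third locus of the cluster in each library. The next protein-coding locus, CMV162C, had 16.6, 12.4 and 8.91 FPKM.

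The third cluster held CMV207C, CMV208C and CMV209C. CMV208C (126098 to 126547) had 497, 403 and 451 FPKM, and CMV209C (126566 to 126877) had 377, 566 and 549 FPKM. CMV207C (125181 to 125999), which overlaps CMV206C by 37 bp, had 551, 405 and 448 FPKM and was the highest overlapping locus of at least 300 bp. The 3 loci were within 2-fold of each other in each library, and CMV209C was the only one of the 10 highest loci without overlap and of at least 300 bp that was lower in library 1 than in both others.

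The other high loci without overlap lay outside the clusters above. CMV129C (83356 to 85164, 1809 bp) had 421, 282 and 314 FPKM from 13111, 2020.0 and 2169 implied fragments, the most of the 90 protein-coding loci without overlap in each library. The next protein-coding loci after CMV129C were high as well. CMV132C had 2424, 2998 and 3175 FPKM, CMV133C 147, 273 and 279 FPKM, CMV134C 217, 216 and 237 FPKM, and CMV135C 193, 120 and 135 FPKM. CMV047C (29483 to 30562) had 308, 243 and 271 FPKM, and CMV048C, 93 bp after it, had 188, 118 and 126 FPKM. CMV013C (7504 to 8967) had 203, 138 and 152 FPKM. Across all 90 loci without overlap, the 5 with most fragments held 41.3%, 40.8% and 40.6% of the implied chloroplast fragments and the 10 with most held 65.1%, 64.5% and 64.4%. The implied fragments of these 90 loci thus came to a large share from a handful of them, in nearly the same proportion in each library. Overlapping loci and chloroplast loci of other kinds are not part of these shares.

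At the low end, CMV062C (41383 to 43131, 1749 bp) had 2.62, 2.28 and 1.63 FPKM from 79.1, 16 and 11 implied fragments. CMV197C (122261 to 122734) had 3.74, 4.30 and 2.63 FPKM from 21, 5 and 3 implied fragments, the last of which lies at the limit of 3. CMV027C (16777 to 17541) had 4.72, 3.98 and 5.08 FPKM. These low loci were covered in each library, but by few fragments in libraries 2 and 3. CMV194C, CMV080C, CMV156C, CMV165C, CMV163C, CMV184C and CMV170C completed the 10 lowest, between 4.20 FPKM at CMV194C and 13.2 FPKM at CMV163C in library 1. For all 10, the confidence limits of the 3 libraries overlapped. The ends of this order were apart: the upper limit of CMV062C lay below the lower limit of CMV163C in each library, at 3.21 against 12.0, 3.43 against 7.83 and 2.61 against 8.11 FPKM.

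**Figure D2:**
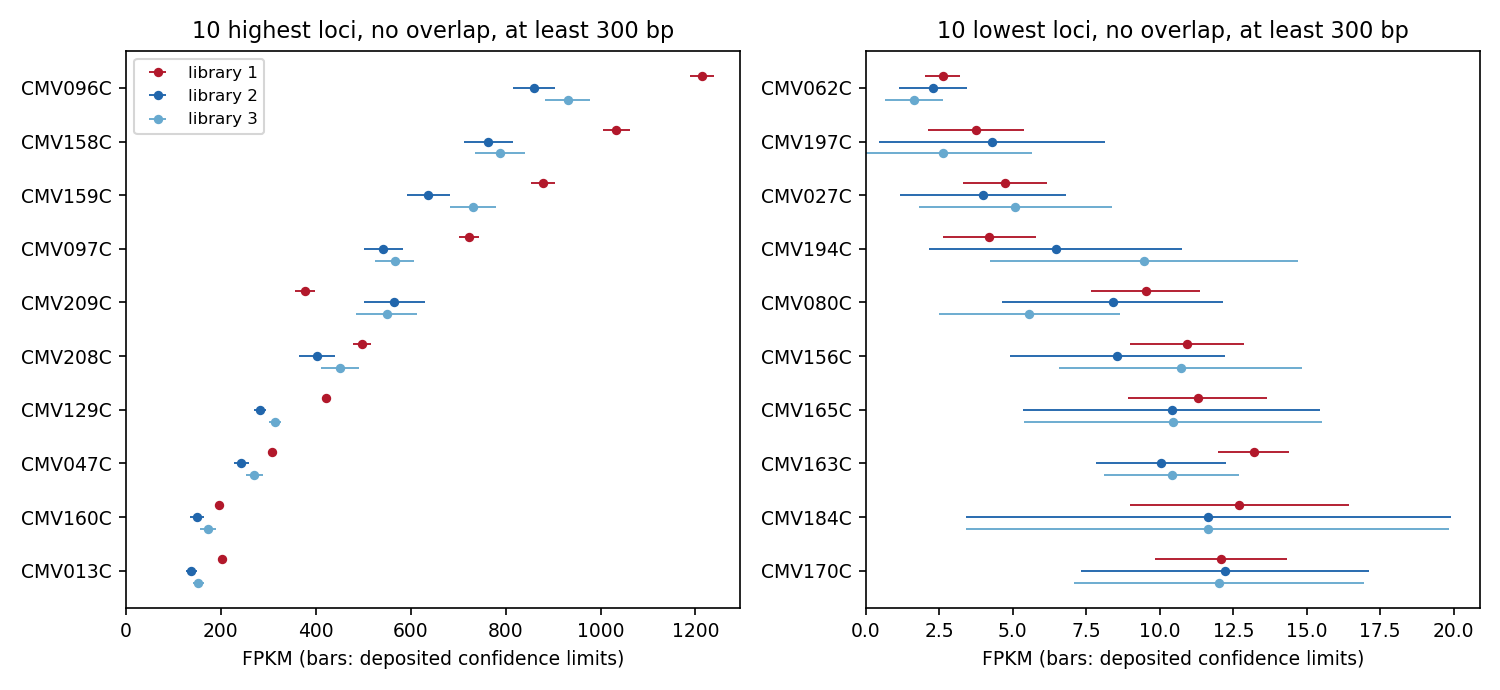
FPKM (x axis, linear) of the 10 highest and 10 lowest chloroplast loci without overlap of at least 300 bp, one point per library with the deposited confidence limits as bars. In the left panel 9 of the 10 highest loci have their largest value in library 1, while in the right panel the limits of the 3 libraries overlap at each of the 10 lowest loci.

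The very highest FPKM values belonged to short loci. By mean FPKM, 8 of the 10 highest of all 207 loci were under 300 bp and 6 were under 150 bp, and these 10 made up 39.2%, 62.0% and 59.4% of the summed chloroplast FPKM in libraries 1, 2 and 3. CMV045C (105 bp) was listed at 0, 1923 and 1861 FPKM, which rested on 0, 1 and 1 implied fragments. CMV139C (108 bp) was listed at 732, 0 and 0 FPKM from 1, 0 and 0 fragments. Such values carry the weight that a single fragment gets in a very short gene. One fragment was worth 38.7, 133 and 193 FPKM (medians) at loci without overlap under 150 bp, against 0.0899, 0.420 and 0.427 FPKM at those of at least 300 bp.

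Of the short loci, 2 with high values are named here after their values were seen. CMV132C (273 bp, 85370 to 85642) had 2424, 2998 and 3175 FPKM from 5604, 1073 and 1131 implied fragments, so its level rested on counts as deep as those of CMV158C. CMV146C (141 bp, 93100 to 93240) had 571, 4141 and 5151 FPKM from only 34.2, 56.1 and 69.6 fragments, although library 1 was the deepest of the 3. The 2 loci differ in how far the libraries were apart: by less than 1.5-fold at CMV132C and by several fold at CMV146C.

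More than 3 implied fragments in all 3 libraries were reached at 74 of the 90 loci without overlap, while 97.2% of all protein-coding loci without overlap did. Coding length went with it: 55 of 55 loci of at least 300 bp passed, against 19 of 35 shorter ones. The shortfall lay under 150 bp, where 6 of 21 passed, against 13 of 14 from 150 to under 300 bp. Of the loci counted as passing, 2 lay at the limit itself. These were CMV197C, with 3.00001 fragments in library 3, and CMV229C (114 bp), with 3.00004 in library 1. Over all 207 chloroplast loci, overlapping ones included, there were 11 where some library gave 0 and another gave 10 FPKM or more. Of these 11, 9 were under 300 bp and 7 overlapped another locus. The same count was not made for nuclear loci. At loci without overlap under 150 bp the median implied fragment number was 1, 1 and 1.99 in libraries 1, 2 and 3. The deeper library 1 thus held no more fragments there than the others.

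In all, 39 of 207 chloroplast loci (18.8%) were listed at 0 in every library, while 3.29% of all protein-coding loci were. A value of exactly 0 can also be a failed estimate, so it is given here as a listing and not as absence of RNA. Overlap and length both went with it. Among overlapping loci, 32 of 117 (27.4%) were listed at 0, while 14.4% of overlapping protein-coding loci of all genomes were, and these 32 ran from 87 to 1683 bp in length. Among loci without overlap, 7 of 90 were listed at 0, all between 81 and 147 bp. At 300 bp and above the counts were 14 of 85 overlapping loci and 0 of 55 loci without overlap.

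The number of overlapping partners also went with the listing. Of the loci of at least 300 bp that overlap 2 or more others, 11 of 28 were listed at 0, against 3 of 57 that overlap only 1. In the nucleus the same counts were 6 of 33 and 90 of 773. The 117 overlapping loci fell into 43 chains of linked loci, of which 19 held at least 1 locus at 0. In 18 of these 19 the longest coding locus was above 0. The exception was the pair CMV147C and CMV148C, of 96 and 93 bp, where both were listed at 0.

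The longest unbroken listing at 0 was a block of 7 consecutive loci, CMV115C to CMV121C (72689 to 78741). CMV115C (1683 bp), CMV121C (1113 bp), CMV118C (996 bp) and CMV117C (873 bp) are the longest of them, and each overlaps both of its neighbours by between 1 and 65 bp. The loci at both ends of the same chain had reads. CMV114C had 11.1, 9.09 and 9.11 FPKM, and CMV122C had 17.1, 11.8 and 13.2 FPKM. CMV113C, the first coding locus of the chain, had 39.5, 28.1 and 32.2 FPKM. CMV242C (882 bp, 148886 to 149767) shares a single base with CMV241C (147342 to 148886) and was listed at 0, while CMV241C had 351, 223 and 242 FPKM. An overlap of 1 bp thus stood between a locus at 0 and one of the highest overlapping loci. Whether the estimate for linked loci or the RNA gives these zeros was not tested.

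Among loci of at least 300 bp, the median was 19.5, 16.4 and 16.1 FPKM for the 85 overlapping ones, against 34.5, 31.8 and 32.9 FPKM for the 55 without overlap. With the 14 loci listed at 0 set aside, the 71 overlapping loci had medians of 23.0, 18.9 and 21.7 FPKM, still under the loci without overlap in each library. Over all 207 loci the medians of log2(FPKM + 1) differed by -1.57 (overlapping minus non-overlapping), against -0.94 at 300 bp and above. When only overlaps of more than 10% of a locus counted, the difference was -4.54. That group held 18 loci, of which 10 were listed at 0 in every library. Its median was therefore 0, and the -4.54 gives no level of overlapping loci. High values did occur among overlapping loci. CMV233C (143520 to 144011) had 273, 217 and 249 FPKM, CMV134C (85863 to 86279) had 217, 216 and 237 FPKM, and CMV081C (52516 to 53568) had 223, 161 and 184 FPKM.

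Neighbouring chloroplast loci were closer in level than loci taken from anywhere on the map. The median absolute difference between adjacent loci was 1.23 on the log2(FPKM + 1) scale, against 2.95 for all pairs of the 207 loci (neighbours minus all pairs -1.72). In the nucleus these medians were 1.21 and 1.36 (-0.15). Among the 55 chloroplast loci of at least 300 bp without overlap, which share no sequence, the medians were 1.12 for consecutive loci of that list, often with other loci between them, and 1.89 for all pairs. The 24 pairs among them that are adjacent on the map had a median of 0.97, so closeness was also seen where no overlap linked the estimates. Loci at 0 widened the contrast over all 207: with a mean of at least 1 FPKM required, the difference was -0.85.

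The likeness of neighbours went with the distance between them. Among adjacent pairs with both loci at least 300 bp long and above 0, the median absolute log2 difference was 0.48 for 26 overlapping chloroplast pairs and 0.59 for 28 pairs that lay 0 to 25 bp apart. It was 1.08 for 18 pairs at 26 to 100 bp and 2.25 for 13 pairs more than 100 bp apart. The share of pairs within 1 log2 unit was 21 of 26, 21 of 28, 9 of 18 and 1 of 13 over the same 4 classes. At the widest spacing the pairs differed by about as much as chloroplast loci of 300 bp or more from anywhere on the map, whose pairs had a median of 2.02 with loci at 0 included. Each library taken alone gave the same order between close and wide pairs: the median at 0 to 25 bp was 0.46, 0.49 and 0.73, and that above 100 bp was 2.32, 2.20 and 2.30.

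Nuclear pairs showed a smaller spread over the same distances, with medians of 0.59 for 48 overlapping pairs, 0.98 for 34 pairs at 0 to 25 bp, 1.05 for 81 pairs at 26 to 100 bp and 1.14 for 4230 pairs above 100 bp. Wider chloroplast spaces often held another kind of locus. Of the 13 wide pairs, 9 had at least 1 locus whose identifier ends in R between them, against 2 of 18 pairs at 26 to 100 bp and 0 of 28 closer ones. Size alone limits this count, as the shortest chloroplast locus of that kind is 67 bp. A space of 0 to 25 bp could not hold a whole one, and only the wider spaces at 26 to 100 bp could. The wide pairs without such a locus were further apart in level than most of those with one. The median difference was 1.33 for the 9 pairs with one (0.94 to 3.67), and 3.40 for the 4 pairs without (2.25 to 5.03). Both pairs with such a locus at 26 to 100 bp were within 1 log2 unit.

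**Figure D3:**
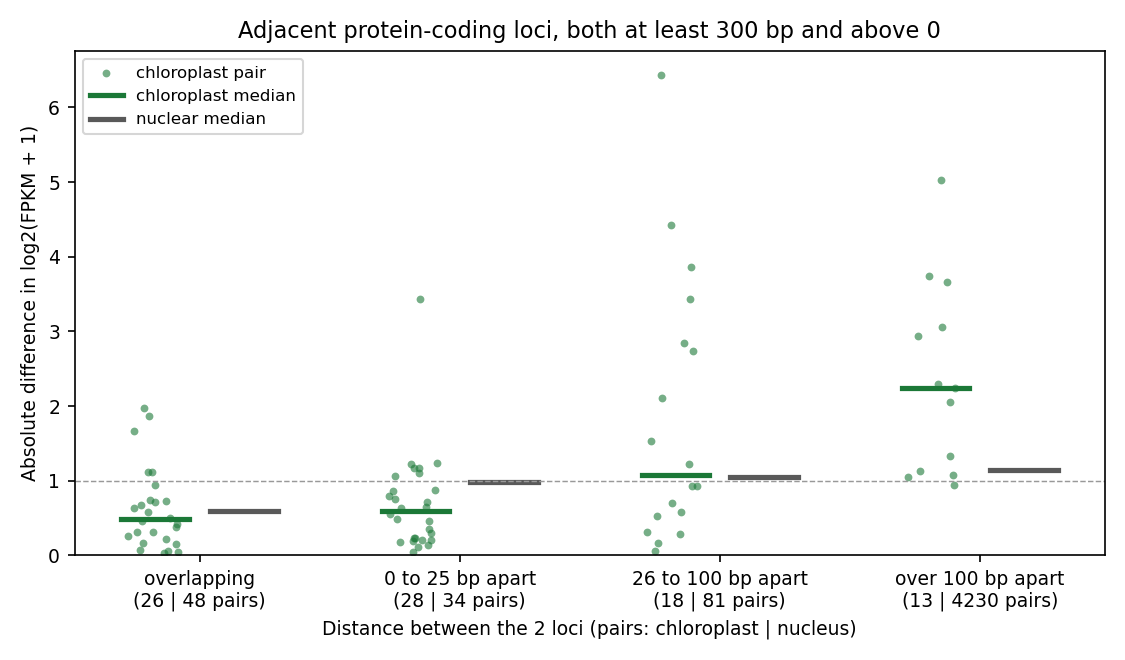
Absolute difference in log2(FPKM + 1) (y axis, mean of 3 libraries) between adjacent protein-coding loci, by the distance between them (x axis). Green points are chloroplast pairs, green lines their medians and grey lines the nuclear medians, and the dashed line marks 1 log2 unit. The chloroplast medians are 0.48, 0.59, 1.08 and 2.25 over the 4 classes, and 1 of the 13 widest pairs lies under the dashed line.

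Sharp steps between neighbours were found at 6 of the 24 adjacent pairs in which both loci had no overlap, reached 300 bp and had more than 3 fragments (25%), where a step is a difference of at least 8-fold. Among nuclear pairs of the same kind 11.9% had such a step. The largest was between CMV097C and CMV098C, at 33.0-fold, 37.0-fold and 33.9-fold in libraries 1, 2 and 3. The step from CMV160C to CMV162C was 11.8-fold, 12-fold and 19.4-fold, and that from CMV157C to CMV158C was 11-fold, 11-fold and 10.8-fold. Each of these steps was many times larger than the differences between libraries at the same loci.

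Distance did not mark every step. CMV155C (97971 to 98870) had 142, 98.6 and 114 FPKM, and CMV156C (98889 to 99578), only 18 bp further, had 10.9, 8.56 and 10.7 FPKM. CMV157C (99640 to 102159) on its other side had 93.5, 69.2 and 72.8 FPKM. CMV156C was thus a single low locus between higher ones. The remaining steps lay between CMV062C and CMV063C and between CMV197C and CMV200C, where CMV197C was at the limit of 3 fragments in library 3.

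Runs were defined as at least 4 consecutive loci in which each locus was within 2-fold of the one before it, by the mean of the 3 libraries. There were 7 runs with 39 of the 207 chloroplast loci (18.8%), while 27.6% of nuclear loci lay in runs. The chloroplast share was lower, in a set with a wider spread of levels. A locus with a mean of 0 also ends a run. Such loci made up 18.8% of chloroplast and 2.44% of nuclear loci, so the 2 shares are not on equal terms. The longest chloroplast run held 10 loci and the longest nuclear run 11. With limits of 1.5-fold and 3-fold the number of chloroplast loci in runs was 23 and 82, and with only loci without overlap it was 8. The count rests on the limit that is chosen.

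The longest run went from CMV162C to CMV171C (104351 to 110364), directly after the step that ends the CMV158C to CMV160C cluster. Its loci had medians of 12.1, 12.3 and 11.2 FPKM and lay between 6.09 and 16.6 FPKM in library 1, 10.0 and 20.9 FPKM in library 2, and 8.91 and 25.9 FPKM in library 3, and 5 of the 10 overlapped another locus. The first locus, CMV162C, had 16.6, 12.4 and 8.91 FPKM, and the last, CMV171C, had 14.3, 17.5 and 13.5 FPKM. The run spans 6014 bp, and a step of more than 2-fold broke it in each library taken alone. In libraries 2 and 3 it fell into shorter ones, CMV162C to CMV165C and CMV167C to CMV171C, and in library 1 into CMV162C to CMV167C and CMV168C to CMV171C.

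The second run held 7 loci from CMV175C to CMV181C (111035 to 114423), with medians of 13.0, 12.3 and 15 FPKM. Its first locus, CMV175C (225 bp), was listed at 0, 0 and 53.8 FPKM and belongs to the run only through its mean. CMV181C (1020 bp), the last, had 10.7, 11.5 and 12.2 FPKM. The third run held 6 loci from CMV221C to CMV226C (138529 to 142031), with medians of 19.2, 22.8 and 21.5 FPKM. CMV221C had 16.1, 58.1 and 24.1 FPKM and CMV226C had 8.46, 15.9 and 17.5 FPKM, both of them under 300 bp. The other 4 runs held 4 loci each.

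The first 2 runs lie in a wider stretch of low levels, from CMV162C to CMV204C (104351 to 124898), whose ends were set after the values were seen. Its 28 loci of at least 300 bp with a mean of at least 1 FPKM had medians of 13.2, 12.4 and 13.5 FPKM, against 33.1, 27.7 and 32.0 FPKM for 98 such loci elsewhere on the map. The highest value among these 28 loci was 42.8, 43.3 and 45.6 FPKM. Elsewhere the highest such locus was CMV096C. Shorter loci of the stretch were not all low, as CMV188C (201 bp) had 30.2, 94.4 and 136 FPKM. Because the ends of the stretch were chosen on these same values, its lower levels describe how it was drawn and are no separate result.

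Library 1 differed from libraries 2 and 3 in a way that went with coding length. The difference is given as log2(FPKM + 1) of library 1 minus that of the mean of libraries 2 and 3, at loci with a mean of at least 1 FPKM. Its median at chloroplast loci was -2.34 under 150 bp (14 loci), -0.90 from 150 to under 300 bp (28 loci), 0.00 from 300 to under 600 bp (54 loci), 0.38 from 600 to under 1000 bp (40 loci) and 0.41 at 1000 bp and above (32 loci). Short loci were lower and long loci higher in library 1. In the nucleus the medians were -1.28, -0.47, -0.15 and 0.02 over the last 4 of these length classes.

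Within each of the 4 classes the chloroplast median thus lay above the nuclear one. Of the 32 chloroplast loci of 1000 bp or more, 31 were higher in library 1. Loci without overlap of that length, where no linked estimate is involved, were higher in 18 of 18, by 0.08 to 0.60. Over all lengths, 16 of 168 chloroplast loci were more than 1.5 times higher in library 1, while 2.84% of all protein-coding loci were. In the other direction 38 of 168 were more than 1.5 times lower, while 8.43% of all protein-coding loci were. Of the 38 lower loci, 30 were under 300 bp, and 15 of the 16 higher loci reached 300 bp. Under 300 bp, 71.4% of chloroplast and 89.3% of nuclear loci were lower by this measure. At 300 bp and above 6.35% and 6.39% were, so the chloroplast share of lower loci was not in excess at like length. Higher loci made up 11.9% of chloroplast and 2.62% of nuclear loci at 300 bp and above. At the 10 highest named loci the lower confidence limit of library 1 lay above the upper limits of both other libraries in 7 cases. With library 1 as a single independent sample, a difference in culture and one in library preparation cannot be told apart.

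**Figure D4:**
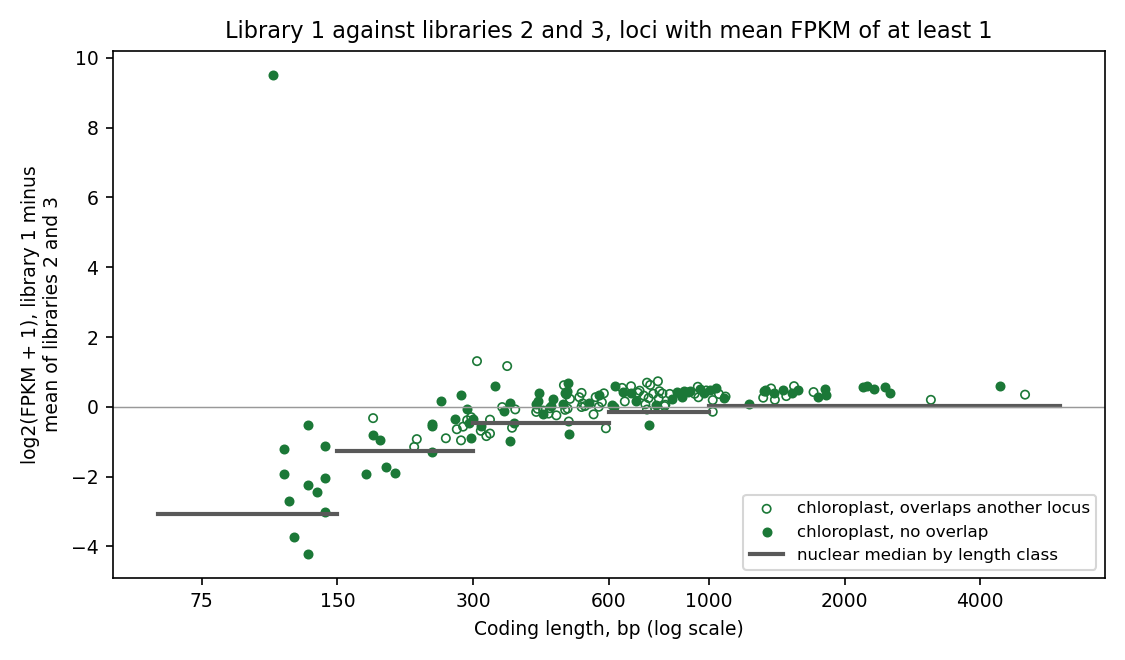
Difference in log2(FPKM + 1) between library 1 and the mean of libraries 2 and 3 (y axis) against coding length on a log scale (x axis), for chloroplast loci with a mean of at least 1 FPKM that are above 0 in library 1. Open circles overlap another locus, filled circles do not, and grey lines are nuclear medians by length class (the class under 150 bp is a single nuclear locus). Chloroplast loci under 300 bp lie mostly below 0 and 31 of the 32 loci of 1000 bp or more lie above 0, and the lone point near 10 is CMV139C, which rests on 1 fragment.

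Library 1 also stood differently against the others in the stretch from CMV162C to CMV204C, whose ends were set after the values were seen. The median difference of its loci of at least 300 bp was -0.01, with 13 of 28 loci higher in library 1, against 0.37 and 82 of 98 elsewhere. The loci of the stretch are shorter, with a median of 480 bp against 747 bp. At 600 bp and above the medians were 0.14 in the stretch (8 loci) and 0.41 elsewhere (64 loci), and from 300 to under 600 bp they were -0.08 (20 loci) and 0.11 (34 loci). The gap between stretch and remainder was thus present in both length classes, on few loci in the longer one. It describes the stretch as drawn and is no separate result, and no nuclear stretch was set beside it. Its cause was not tested.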

How the data were processed

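Poly(A) RNA of 3 libraries of C. merolae strain 10D was sequenced by the authors as paired ends and processed with the Tuxedo tools. The deposited values are FPKM per locus with confidence limits from Cufflinks, on the Genome Project annotation (version 3). Tool versions and the treatment of reads that fit several loci are not given in the sources used here.

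Here, loci were read with Python 3.11.15, numpy 2.4.6, pandas 2.3.3 and scipy 1.17.1, and plotted with matplotlib 3.10.9. The upper limit was taken as FPKM + 2 SD, and the implied fragment number as the square of FPKM over SD, only at loci without overlap (at least 1 shared bp). The scripts were tested on simulated data. Intervals and limits cover counting error only. Loci were ranked by the mean of the 3 libraries. Levels were compared on log2(FPKM + 1), by medians and counts and without tests. No strand was used, so reads of overlapping genes on opposite strands cannot be told apart. The map was not closed across its first position. Of the 207 identifiers, 0 matched the RefSeq gene table, so no names, roles or sequences are given.

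The text names the 10 highest and 10 lowest loci by mean FPKM among those without overlap, of at least 300 bp and with over 3 implied fragments in all libraries, the 5 highest overlapping loci of at least 300 bp, the first and last loci of the 3 longest runs, and up to 5 of the longest loci at 0. The neighbours of such loci and the loci said to be so were added after their values were seen. The members, lists and rules were chosen with earlier results of these data known. Alternatives were leaving out each library, a pseudocount of 0.1, a mean of at least 1 FPKM, a length of at least 300 bp, other overlap rules, other run limits, a limit of 10 fragments and scaling to the nuclear median.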

Additional observations from a re-analysis of the deposited data

Results flagged for a closer look

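Among the loci outside the comparisons above, 2 chloroplast loci whose identifiers end in R, and which overlap no other locus, had more implied fragments than the limit of 3 in each library. CMV029R (1425 bp, 17714 to 19138) had 30268, 5099 and 5446 implied fragments in libraries 1, 2 and 3, at 1149, 878 and 932 FPKM, a level like that of CMV096C. CMV023R (246 bp, 13312 to 13557) had 117, 31.9 and 26.9 implied fragments, at 73.5, 138 and 118 FPKM. Of the 38 chloroplast loci of this kind, 34 were listed at 0 in every library, and all 34 were under 130 bp. There are no control samples to set these values against.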

How the results depend on the processing

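No paired analysis was possible because the series has 1 condition. For 8 results, 52 alternative values were computed, of which 24 stayed within the spread between samples (for counts, within 1.5 times) and 28 moved. No difference changed sign, but for library 1 against the others this could not happen. Its main value was 0 with an SD of 0, so any other value counted as moved. Leaving out each library in turn gave -0.70 to -0.43 for chloroplast minus nuclear loci, -1.60 to -1.47 for overlapping minus non-overlapping loci and -1.80 to -1.63 for neighbours minus all pairs. The pseudocount of 0.1 gave -1.63 for overlap and -1.96 for neighbours. A mean of at least 1 FPKM gave a chloroplast median of 31.1 FPKM (21.2 in the mean of all 3 libraries), -0.080 against the nucleus, -1.47 for overlap, -0.85 for neighbours and 0.12 for library 1 against the others (0.00 over all loci). Loci of at least 300 bp gave -0.88, -1.16 for neighbours, -0.94 for overlap and 0.25 for library 1. Counting only overlaps of more than 10% gave -1.46 against the nucleus, -4.54 for overlap and 142 covered loci in place of 74. The -4.54 rests on 18 overlapping loci with a median of 0. The 142 came from a larger set, with 99 loci of smaller overlap added, where implied fragments are less certain. It is thus no gain in coverage. Loci without overlap alone gave a median of 43.7 FPKM, -0.98 for neighbours, 8 loci in runs in place of 39, 65.5% of the summed FPKM in the 10 highest loci in place of 55.9%, and 0.082 for library 1. Run limits of 1.5-fold and 3-fold gave 23 and 82 loci. The causes were not tested. The difference of library 1 has no value without library 1. Precision was lowest under 150 bp, where the median was 1, 1 and 1.99 implied fragments in libraries 1, 2 and 3.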
